A study of Mus musculus with 4 samples.

Results

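The insulin-like growth factor (IGF) system and the growth hormone receptor were followed in growth plate chondrocytes of mice with a cartilage deletion of Ift88, which encodes a transport protein needed to build cilia. The genes were Igf1, Igf1r, Igf2r, Igfbp2, Igfbp3, Igfbp4, Igfbp5, Igfbp6, Igfbp7 and Ghr, and a probe set, the group of probes that an Affymetrix array reads as 1 value, was taken when the platform annotation named exactly 1 of these genes and no other. This gave 29 of the 45037 probe sets tested and 10 of 18193 named genes. A further probe set, which names Igf2r together with Airn, was left out by this rule.

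The series holds 4 arrays of total RNA from proliferative zone chondrocytes, the dividing cell columns of the growth plate, cut by needle from 40 µm hindlimb sections of the proximal tibia and distal femur at postnatal day 7. Control 1 and control 2 are labelled wild-type. Ift88-deleted 1 and Ift88-deleted 2 come from Col2aCre;Ift88fl/fl mice, in which Cre recombinase made under a type II collagen promoter deletes the floxed Ift88 gene in cartilage-forming cells. All mice were C57BL/6. The labels do not say whether controls carried the Cre or the floxed alleles, nor how many animals went into a sample, and needle dissection can carry over neighbouring tissue.

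Growth hormone acts through its receptor, Ghr, and the kinase Jak2 on STAT5 transcription factors, and one of its main targets is Igf1. IGF1 binds the receptor tyrosine kinase Igf1r and drives chondrocyte division and enlargement, while Igf2r, the cation-independent mannose 6-phosphate receptor, takes up IGF2 for breakdown and sorts lysosomal enzymes. The IGF-binding proteins carry the ligands, shield them from the receptor or release them when proteases cut them. IGF signalling has been tied to the primary cilium in several cell types, and the comparison asks which genes of the system differ when the cilium's transport machinery is deleted.

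Each value is a log2 value relative to that probe set's median over the 4 arrays, so differences between arrays are kept and expression levels are lost. The median of 4 values is the midpoint of the middle pair, so these lie at equal distances on either side of 0 in every probe set. The SD over probe sets was 0.289 and 0.213 in controls 1 and 2 and 0.173 and 0.223 in Ift88-deleted 1 and 2. Control 1 minus control 2 had an SD of 0.381, and Ift88-deleted 1 minus Ift88-deleted 2 one of 0.279. The decimal steps of the deposited numbers also gave a coarse brightness class, the range that held the lowest original log2 value of a probe set. Of the chondrocyte marker probe sets 17 of 18 were in the brightest class, at 8 or more, as were 25.0% of all probe sets, and their median difference was 0.002. The groups did not overlap for 8 of these 18, 4 higher and 4 lower in Ift88-deleted samples, against 33.6% of all probe sets. Comp had a difference of -0.54 (SE 0.191), without overlap, and Hapln1 lay between -0.47 and -0.01 over its probe sets.

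The controls and the Ift88-deleted arrays also differed in the genes that mark sex. Xist, the RNA of the inactive X chromosome, was at 3.83 and 3.86 in controls 1 and 2 and at -3.83 and -3.92 in Ift88-deleted 1 and 2 (probe set 1427263_at). The Y-linked Eif2s3y lay the opposite way, at -3.15 and -3.40 against 3.48 and 3.15 (1417210_at). Sex by these genes and genotype cannot be told apart for any difference given here. The probe set of Ift88 itself gave 0.08 (SE 0.166), and whether it lies in the deleted exons was not analysed here. Gli1, the transcription factor that Hedgehog signals switch on through the cilium, had a difference of -2.62 (adjusted p = 0.0911), and of the probe sets of Ptch1, the Hedgehog receptor, 1428853_at was 4.43-fold lower (adjusted p = 0.0416), 1439663_at had a difference of -2.81 that missed the threshold (adjusted p = 0.119) and 1450824_at one of 0.08.

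No probe set of the 10 genes passed the test. In limma's moderated test with Benjamini-Hochberg adjustment over all 45037 probe sets, 0 of 29 had an adjusted p under 0.05, where 0.0444% of all probe sets did (0.0222% higher and 0.0222% lower), and the lowest adjusted p was 0.323. The arrays of the groups did not overlap for 12 of 29 probe sets, 6 higher and 6 lower in Ift88-deleted samples, against 33.6% of all probe sets (16.2% higher and 17.4% lower). An unadjusted p under 0.05 was found for 6 of 29, 3 higher and 3 lower, against 6.17% of all (3.0% higher and 3.18% lower). The 29 differences ran from -1.17 to 0.72 with a median of -0.026, where the median of all probe sets was 0.002. Their median size without sign was 0.243, against 0.129 over all probe sets, and their median gap between both controls was 0.454, against 0.221. The labels call the samples biological replicates but give no animals. The p values thus rest on the spread between these samples, which limma takes in part from all probe sets.

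**Figure D1:**
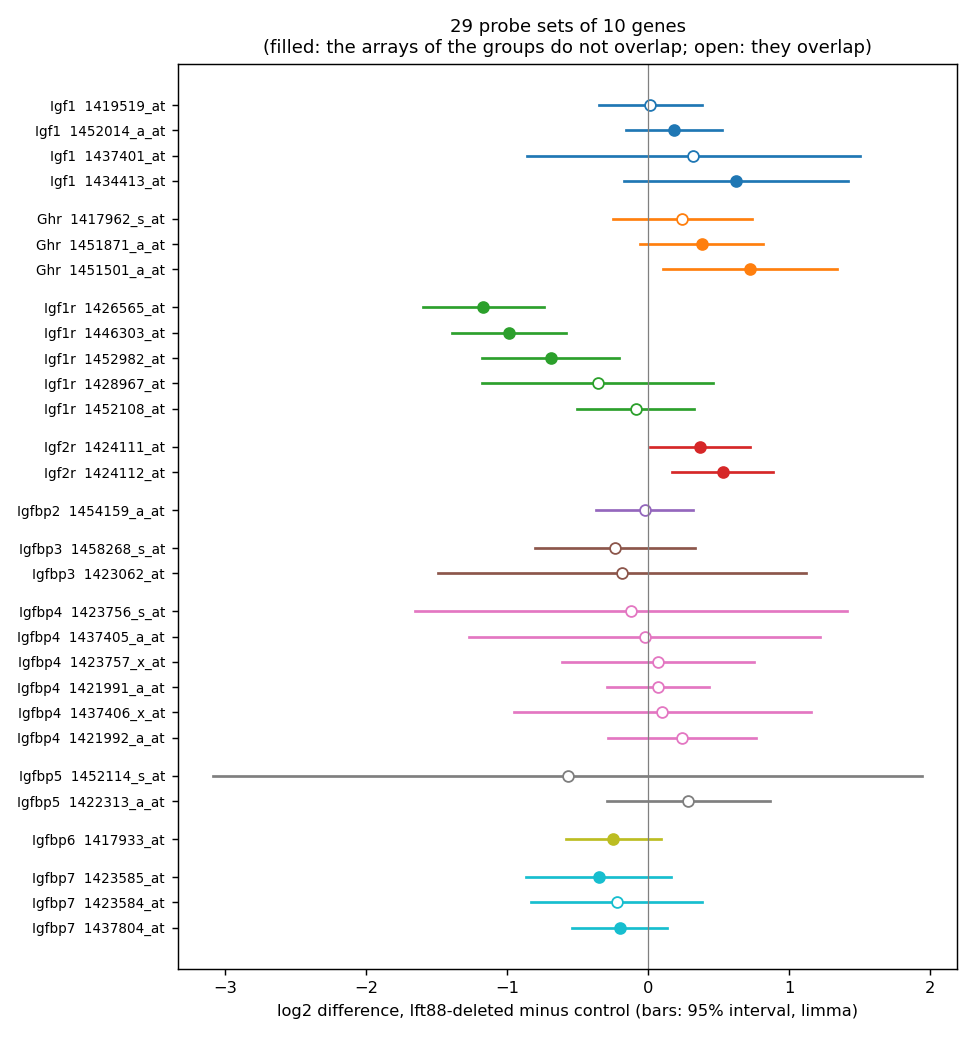
The log2 difference (Ift88-deleted minus control) of each of the 29 probe sets is plotted with its 95% interval from limma, grouped by gene on the vertical axis; filled points mark probe sets whose groups do not overlap. Igf1r lies to the left with intervals that exclude 0 for 3 of its 5 probe sets, Igf2r and Ghr lie to the right, and the widest interval is that of Igfbp5 probe set 1452114_s_at, from -3.09 to 1.94.

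The receptor genes held the 6 probe sets with an unadjusted p under 0.05. Igf1r was lower in the Ift88-deleted arrays on 3 of its 5 probe sets, and Igf2r was higher on both of its own. Ghr was higher by group mean on all 3. As means over the probe sets of a gene, the log2 differences were -0.66 for Igf1r (SE 0.167, adjusted p = 0.635 over 18193 genes), 0.45 for Igf2r (SE 0.122, adjusted p = 0.678) and 0.45 for Ghr (SE 0.18, adjusted p = 0.829). By such means 0.011% of all genes passed.

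Igf1r encodes the receptor through which IGF1 and IGF2 signal. Probe set 1426565_at read 0.71 and 0.46 in controls 1 and 2 against -0.46 and -0.71 in Ift88-deleted 1 and 2. Both controls thus stood above both Ift88-deleted arrays, 2.25-fold on average (log2 difference -1.17, SE 0.172, 95% interval -1.60 to -0.74, adjusted p = 0.323 in limma). Probe set 1446303_at read 0.42, 0.43, -0.71 and -0.42 in the same order. The gap between its groups was again wider than that within either group (difference -0.99, SE 0.161, 95% interval -1.39 to -0.59, adjusted p = 0.36). Probe set 1452982_at read 0.52, 0.18, -0.50 and -0.18, with groups apart (difference -0.69, SE 0.193, 95% interval -1.18 to -0.21, adjusted p = 0.685).

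The other Igf1r probe sets did not separate the groups. Probe set 1428967_at read 0.45 in control 1 and 0.17 in Ift88-deleted 2, against -0.17 in control 2 and -0.60 in Ift88-deleted 1, so that 1 array of each group lay on each side of 0 (difference -0.36, SE 0.327). It was designed on the same sequence record as 1452982_at. Probe set 1452108_at, which shares its record with 1426565_at, read 0.20, -0.07, -0.12 and 0.07 (difference -0.09, SE 0.166). Probe sets of 1 record thus gave differences of -1.17 and -0.09 in one case and -0.69 and -0.36 in the other, and which transcripts or 3′ ends each reads was not analysed here. Leaving out any 1 array kept 1426565_at between -1.295 and -1.042, 1446303_at between -1.13 and -0.84 and 1452982_at between -0.86 and -0.53. The sign of the others turned when a single array was left out, to 0.03 for 1428967_at without Ift88-deleted 1 and to 0.04 for 1452108_at without control 1.

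Igf2r, whose protein clears IGF2 at the cell surface and carries lysosomal enzymes, differed in the opposite direction. Probe set 1424112_at read -0.26 and -0.21 in controls 1 and 2 against 0.21 and 0.37 in Ift88-deleted 1 and 2. The pair within each group lay close together and the groups were apart, with 1.44-fold more signal in the Ift88-deleted arrays (difference 0.53, SE 0.143, 95% interval 0.17 to 0.89, adjusted p = 0.684 in limma). Probe set 1424111_at read -0.14, -0.16, 0.28 and 0.14, with the same order of groups (difference 0.37, SE 0.141, 95% interval 0.01 to 0.72, adjusted p = 0.803). Both probe sets were in the brightest class, and with any 1 array left out they stayed between 0.45 and 0.61 and between 0.30 and 0.43.

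The promoters of Igf1r and Igf2r are shown because these genes lay apart between the groups in opposite directions. Each is the 250 bases before the RefSeq start (build GRCm38.p6), in lower case, with capitals for the motifs searched that were found, which were the GC box GGGCGG read by Sp1-type factors and the E-box CACGTG read by bHLH factors.
Igf1r (chr7:67952007-67952256, plus strand): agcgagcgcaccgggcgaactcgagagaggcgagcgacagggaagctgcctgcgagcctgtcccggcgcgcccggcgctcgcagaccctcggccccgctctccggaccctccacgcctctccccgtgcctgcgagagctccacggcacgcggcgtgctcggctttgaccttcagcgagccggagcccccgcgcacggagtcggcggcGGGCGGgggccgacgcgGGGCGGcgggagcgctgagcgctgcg
Igf2r (chr17:12769707-12769956, minus strand): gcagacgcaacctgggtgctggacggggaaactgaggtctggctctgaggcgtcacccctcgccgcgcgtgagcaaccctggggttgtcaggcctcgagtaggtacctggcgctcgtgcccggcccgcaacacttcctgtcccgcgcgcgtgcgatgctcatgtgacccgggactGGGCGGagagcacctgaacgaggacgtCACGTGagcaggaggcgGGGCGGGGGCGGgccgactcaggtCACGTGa
The Igf1r stretch, of 77.6% G and C, held 2 GC boxes, and the Igf2r stretch, of 69.2%, held 3 GC boxes, of which the last 2 adjoin, and 2 E-boxes. On both strands, a GC box was found in 32.7% of 32851 promoter windows of this length and an E-box in 6.02%. The 10 genes had 12 such windows, since Igfbp2 and Ghr have 2 each, and GC boxes were found in 5 of 12 (1 each of Igf1r, Igf2r, Igfbp2, Igfbp7 and Ghr) and E-boxes in 2 (Igf2r and Igfbp2). The GLI site GACCACCCA, present in 0.225% of windows, and the STAT site TTCNNNGAA, present in 7.02%, were in 0 of the 12. A match is a run of letters, not a shown binding site.

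**Figure D2:**
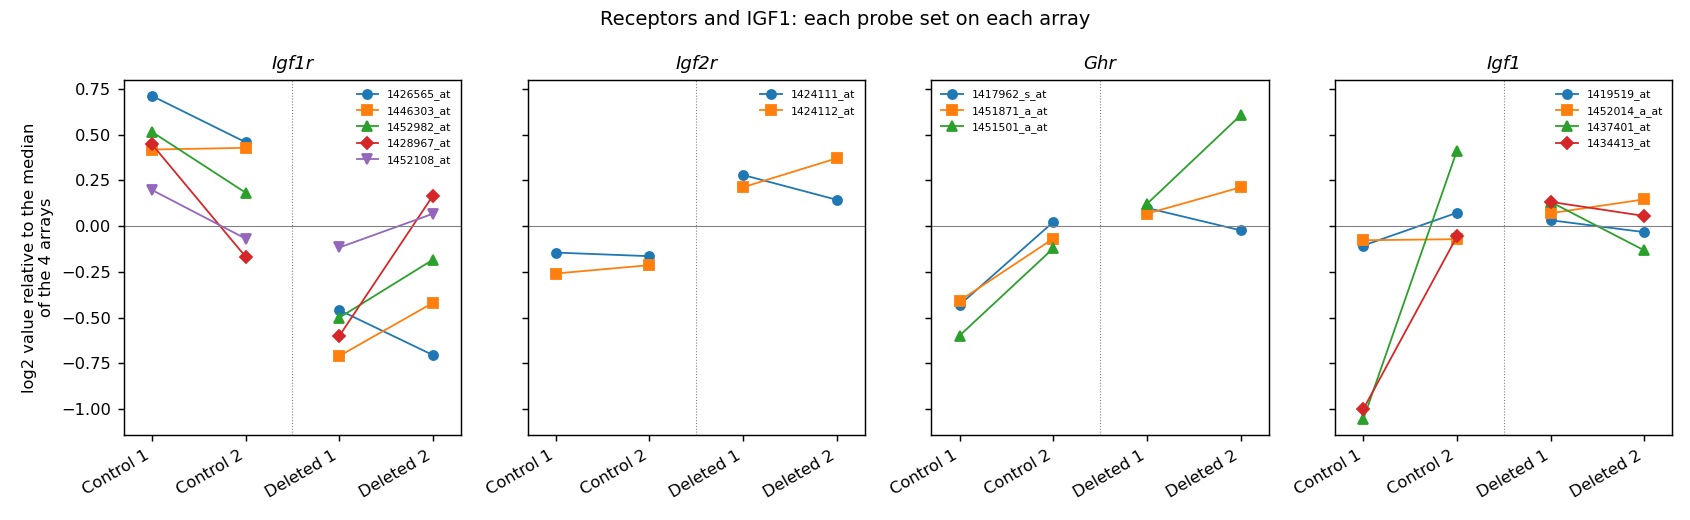
Log2 values relative to the median of the 4 arrays (vertical axis) are plotted for each probe set of Igf1r, Igf2r, Ghr and Igf1 on each array (horizontal axis); lines join the arrays of a group and show no order. Igf2r values of the controls all lie below 0 and those of the Ift88-deleted arrays above it, Igf1r spreads the other way on 3 of 5 probe sets, and control 1 is the lowest array for all of Ghr and Igf1.

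Ghr, the receptor through which growth hormone acts on chondrocytes directly, had its lowest value in control 1 on all 3 probe sets. Probe set 1451501_a_at read -0.60 and -0.12 in controls 1 and 2 against 0.12 and 0.61 in Ift88-deleted 1 and 2. The groups were apart, but each group's own pair differed by 0.48 and 0.49 (difference between groups 0.72, SE 0.246, 95% interval 0.11 to 1.34, adjusted p = 0.756 in limma). Probe set 1451871_a_at read -0.41, -0.07, 0.07 and 0.21, also with groups apart (0.38, SE 0.175). Probe set 1417962_s_at read -0.43, 0.02, 0.10 and -0.02, with overlap (0.24, SE 0.196). Without control 1 the differences were 0.49, 0.21 and 0.02 in this order, and without control 2 0.96, 0.55 and 0.47.

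Igf1, the locally made ligand and growth hormone target, had control 1 as its lowest array on all 4 probe sets. Probe set 1437401_at read -1.06 and 0.41 in controls 1 and 2 against 0.13 and -0.13 in Ift88-deleted 1 and 2. One control was thus the lowest array and the other the highest, and the difference of 0.32 (SE 0.472) became -0.41 without control 1 and 1.06 without control 2. Probe set 1434413_at read -1.0, -0.06, 0.13 and 0.06, with groups apart (0.62, SE 0.317, 95% interval -0.17 to 1.42, adjusted p = 0.865 in limma), and was at 0.15 without control 1. Probe set 1452014_a_at read -0.08, -0.07, 0.07 and 0.15, also with groups apart but by little (0.18, SE 0.136). Probe set 1419519_at, of the dimmest class, with a lowest original value between 2 and 4, read -0.11, 0.07, 0.03 and -0.03 (0.02, SE 0.146). The mean over the 4 probe sets was 0.29 (SE 0.227, adjusted p = 0.956 over all genes), and -0.04 without control 1.

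Igf2, the other ligand, is no member of the set but was measured beside it, and it is named here after its values were seen. Its probe sets read -0.21, -0.06, 0.10 and 0.06 (1448152_at) and -0.28, -0.03, 0.20 and 0.03 (1415931_at) in controls 1 and 2 and Ift88-deleted 1 and 2. The groups were apart on both, by 0.22 (adjusted p = 0.91) and 0.27 (adjusted p = 0.897) in limma, where 33.6% of all probe sets had groups apart.

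The binding proteins showed no probe set with an unadjusted p under 0.05, where 6.17% of all probe sets had one. For most of these proteins the gap within a group was as wide as any between groups. Igfbp3, the main carrier of IGFs in serum, stood highest in control 2. Probe set 1423062_at read -0.59 and 0.96 in controls 1 and 2 against 0.30 and -0.30 in Ift88-deleted 1 and 2, and 1458268_s_at read -0.08, 0.46, 0.08 and -0.18. Both controls thus lay on opposite sides of the Ift88-deleted arrays on the first, with a difference of -0.18 (SE 0.52) that was -0.96 without control 1 and 0.59 without control 2. The second was at -0.23 (SE 0.227), and at 0.04 without control 2.

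Igfbp5, a matrix-bound binding protein that chondrocytes and bone cells secrete, had the widest range of the set. Probe set 1452114_s_at read -1.06 and 2.20 in controls 1 and 2 against 0.22 and -0.22 in Ift88-deleted 1 and 2. The controls were the lowest and the highest of the 4 arrays, 3.25 log2 units apart, and the Ift88-deleted arrays lay between them 0.45 apart. The difference between groups, -0.57 (SE 1.0, 95% interval -3.09 to 1.94, adjusted p = 0.996 in limma), was -2.20 without control 1 and 1.05 without control 2, so no direction can be given. Probe set 1422313_a_at, of the brightest class, read -0.58, 0.03, 0.05 and -0.03 (0.28, SE 0.23), which was low in control 1 but not high in control 2.

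The genes with the nearest pattern to 1452114_s_at, by Euclidean distance over the 4 arrays among probe sets with 1 gene symbol, were Egr1, an immediate early transcription factor (distance 0.667), Itih5, a hyaluronan-binding matrix protein (0.762), and Mmp13, a collagenase of hypertrophic cartilage and bone (0.84). Each stood highest in control 2, at 2.86 for Egr1, 2.36 for Itih5 and 2.45 for Mmp13, which follows from their choice by this distance. The other genes of the hypertrophic chondrocyte list were highest in Ift88-deleted 1. They stood at 0.17 (Col10a1), 0.04 (Ihh) and -0.03 (Pth1r) in control 2. The surface lubricant gene Prg4, a marker of articular and synovial surface, stood at 7.52 in control 2 and at 0.01, -0.19 and -0.01 in control 1, Ift88-deleted 1 and Ift88-deleted 2. The 4 probe sets of the surface marker list, of 3 genes, had a median of 1.05 in control 2 and of -0.04, -0.19 and -0.04 in the others. Cilp of this list read -0.12 and 0.57 in controls 1 and 2 and 0.07 and -0.07 in Ift88-deleted 1 and 2. In the same list Sfrp5, a secreted Wnt inhibitor, read 0.99 and 1.53 in the controls and -1.59 and -0.99 in the Ift88-deleted arrays on 1436075_at, so that both controls were high (difference -2.55, SE 0.28, adjusted p = 0.193 in limma), and its other probe set was at -0.11. The blood and marrow list (6 genes, 7 probe sets) had a median of 0.25 in control 2 and of -0.20, -0.06 and -0.004 in control 1, Ift88-deleted 1 and Ift88-deleted 2. The endothelium list (5 genes, 6 probe sets) had 0.22 in control 2 and -0.19, -0.02 and 0.04 in the others. Prg4, Cilp and these lists were named after their values were seen. The part of surface tissue, blood, marrow or endothelium in the Igfbp5 and Igfbp3 values was not tested. In such bulk samples fewer cells of a type and less RNA per cell cannot be told apart.

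Igfbp4, which holds IGFs away from their receptor until the protease Pappa cuts it, divided the arrays across the groups. Probe set 1423756_s_at read -0.46 and 0.46 in controls 1 and 2 against 0.75 and -0.99 in Ift88-deleted 1 and 2, and 1437405_a_at read -0.55, 0.58, 0.55 and -0.56. Control 2 and Ift88-deleted 1 stood high and control 1 and Ift88-deleted 2 low, and the differences between groups were -0.12 (SE 0.612) and -0.03 (SE 0.498). The probe set 1437406_x_at, whose suffix marks probes that may cross-hybridise, read -0.56, 0.42, 0.47 and -0.42, and 1423757_x_at read -0.44, 0.31, 0.10 and -0.10. The differences of these were 0.10 (SE 0.421) and 0.07 (SE 0.271). Probe sets 1421992_a_at (-0.51, 0.03, 0.02 and -0.02) and 1421991_a_at (-0.08, 0.03, 0.12 and -0.03) varied less beyond control 1. The 6 probe sets come as pairs designed on 3 records, so they are not independent readings.

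Control 2 and Ift88-deleted 1 were also the highest arrays for 9 of the 13 probe sets of the perichondrium and fibroblast marker list. This order was noticed in the data, and its share over all probe sets was not counted. The 13 probe sets are of 8 genes, and Col1a1, Col1a2 and Col3a1 have more than 1 each, so they are not separate markers. The list had medians of -0.166 and 0.328 in controls 1 and 2 against 0.562 and -0.534 in Ift88-deleted 1 and 2. Of the collagens of fibrous tissue and bone, Col1a1 read -0.39, 0.39, 0.42 and -0.53 (1455494_at), Col1a2 -0.50, 0.47, 0.80 and -0.47 (1450857_a_at) and Col3a1 -0.34, 0.34, 1.23 and -1.15 (1427883_a_at). The other 4 probe sets, of Postn, Twist1 and Scx, had another order: Postn, a matrix protein gene of fibrous tissue, read 0.65, -1.14, 3.47 and -0.65, with control 2 lowest, and Twist1 read 0.13, 0.43, -0.13 and -0.24, with both controls highest. Ibsp, the bone sialoprotein gene of osteoblasts, read -1.08, 2.01, 1.08 and -2.01 (1417484_at). The osteoblast genes Dmp1 and Sp7 had another order, with both controls highest. Dmp1 read 0.55, 0.45, -0.45 and -0.82 (1443745_s_at), and Sp7 read 0.15, 0.13, -0.13 and -0.68 (1418425_at). Phex, of the same list, read 0.11, -0.11, 0.53 and -0.60 (1421979_at) and -0.32, 0.028, -0.002 and 0.002 (1450445_at). The osteoblast list as a whole (4 genes) lay below 0 on 7 of 8 probe sets, with a median difference of -0.493. The skeletal muscle list (8 genes) did so on 10 of 11, with a median of -0.226, where 22278 of all 45037 probe sets lay below 0. In the muscle list 1 probe set was past the test (Tnni2, a fast muscle troponin, -3.17, adjusted p = 0.0416 in limma), and Tnni2 was at -2.61 and -0.11 on its others. Tnnc2 (-1.08) and Myh3 (-0.23) were lower with groups apart. Myh8 (-0.40), Acta1 (-0.29), Ckm (-0.11 and -0.05) and Tnnt3 (-0.09) had overlap, and Myog was at 0.09. The collagen and Ibsp probe sets were named after their values were seen, and the part of such tissue in the Igfbp4 values was not tested.

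**Figure D3:**
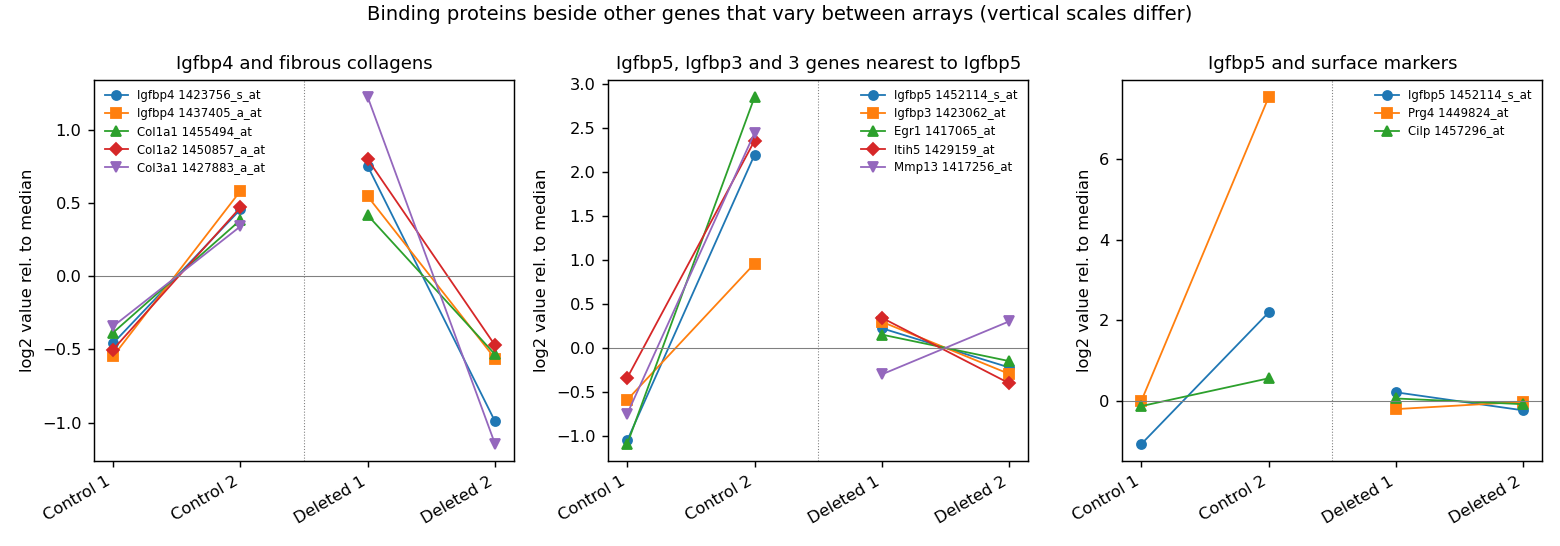
Log2 values relative to the median (vertical axes, with different scales) are plotted by array for Igfbp4 with 3 fibrous collagens, for Igfbp5 and Igfbp3 with the 3 genes nearest to Igfbp5, and for Igfbp5 with 2 surface markers; lines join the arrays of a group and show no order. Control 2 and Ift88-deleted 1 are high in the first panel, and control 2 alone is high in the others, where Prg4 reaches 7.52. The collagens and Prg4 were picked after their values were seen. Postn, Twist1 and Scx of the fibrous list and Sfrp5 of the surface list, which had other orders, are not plotted.

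Igfbp6, a binding protein that prefers IGF2, had a narrow gap between groups and narrower ones within them. Its probe set (1417933_at) read 0.11 and 0.15 in controls 1 and 2 against -0.12 and -0.11 in Ift88-deleted 1 and 2. The groups were apart by -0.25 (SE 0.135, 95% interval -0.59 to 0.09, adjusted p = 0.872 in limma), and the value stayed between -0.27 and -0.23 with any 1 array left out. Igfbp7, a secreted relative that binds IGFs weakly, was lower by group mean on its 3 probe sets, all of the brightest class. Probe set 1437804_at read 0.10, 0.10, -0.10 and -0.11, with groups apart (-0.20, SE 0.134). Groups were also apart on 1423585_at, which read 0.03, 0.10, -0.03 and -0.54. Most of its difference came from Ift88-deleted 2 (-0.35, SE 0.205, and -0.10 without that array). Probe set 1423584_at read -0.12, 0.37, 0.12 and -0.32, with overlap (-0.22, SE 0.242). Igfbp2, whose gene neighbours Igfbp5 on chromosome 1, has 1 probe set (1454159_a_at), of the dimmest class, which read 0.04, -0.02, -0.05 and 0.02 (-0.03, SE 0.137, 95% interval -0.37 to 0.32). Igfbp1, the neighbour of Igfbp3 on chromosome 11 and no member, read -0.02, 0.02, 0.02 and -0.09 (1418918_at).

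**Figure D4:**
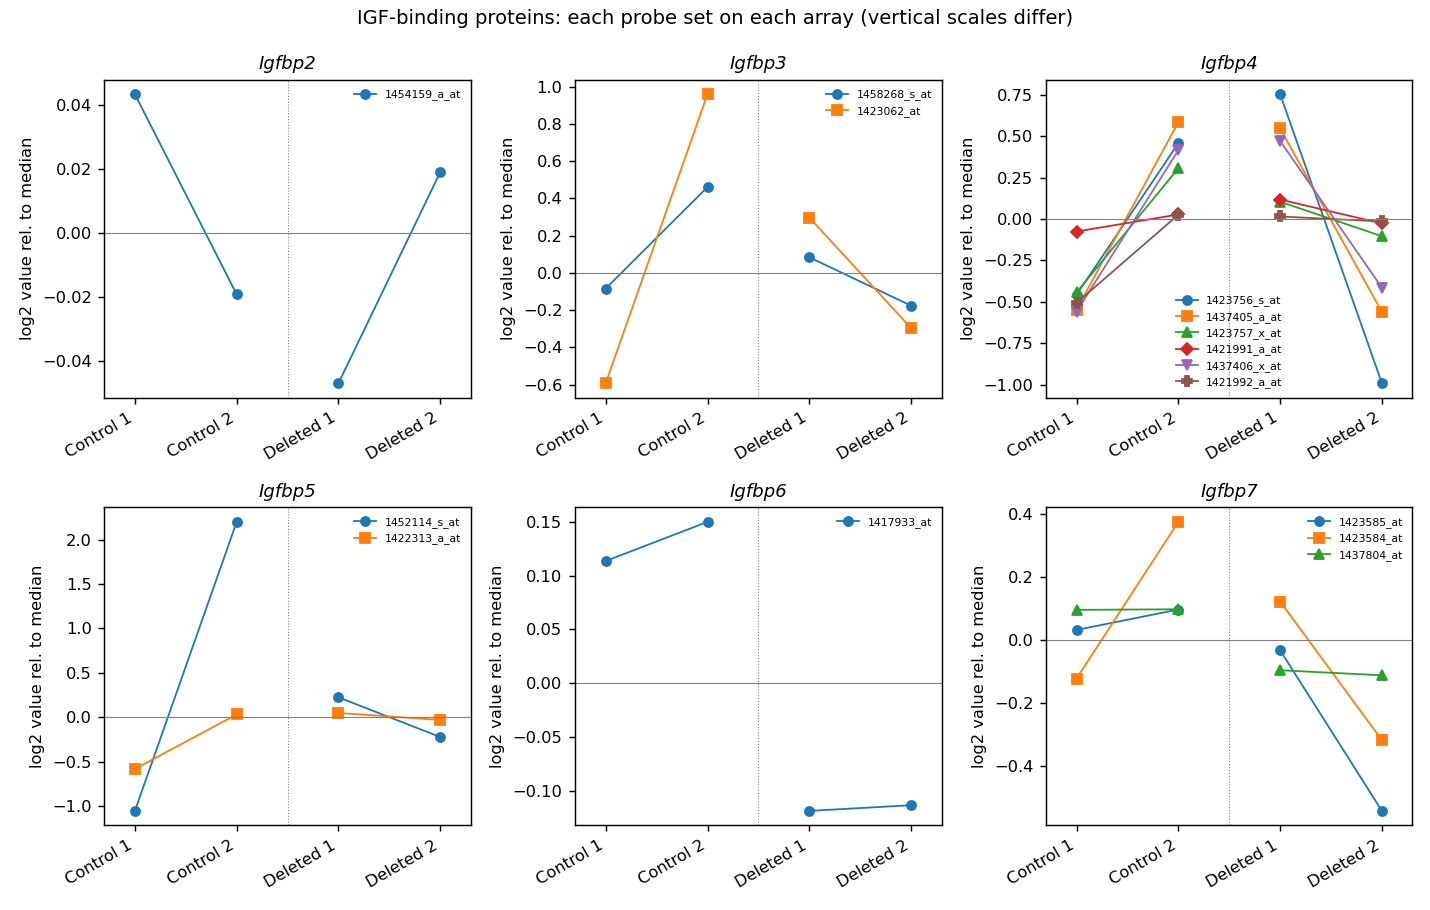
Log2 values relative to the median (vertical axes, with different scales) are plotted by array for each probe set of the 6 binding protein genes; lines join the arrays of a group and show no order. Igfbp6 separates the groups within a range of 0.15 to -0.12, Igfbp4 is high in control 2 and Ift88-deleted 1, and the axis of Igfbp5 reaches 2.20 in control 2.

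Other genes around the receptors were read from 6 lists with 71 measured genes and 168 probe sets. Of these probe sets 0 passed the test in limma, 80 lay above 0 and 88 below, and 23 had an unadjusted p under 0.05, 7 higher and 16 lower, where 6.17% of all probe sets did (3.0% higher and 3.18% lower). Groups were apart for 70 of 168, against 33.6% of all. The median difference was -0.026, the same as that of the 29 probe sets, beside 0.002 over all.

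The carriers and proteases of IGFs (13 genes, 24 probe sets, median 0.034) held 4 probe sets of 24 with an unadjusted p under 0.05, all lower, beside 3.18% lower over all probe sets. The stanniocalcins, secreted inhibitors of the IGFBP-cutting pappalysins, gave 3 of them. Stc2 read 0.57 and 0.19 in controls 1 and 2 against -0.19 and -0.66 in Ift88-deleted 1 and 2 on 1449484_at (difference -0.80, SE 0.229, adjusted p = 0.688), and its differences on 1419503_at and 1445186_at were -0.72 (-0.44 without control 1) and 0.10. Stc1 read 0.32, 0.48, -0.36 and -0.32 on 1450448_at (-0.74, SE 0.143, adjusted p = 0.49), with groups apart, while its difference on 1421984_at, of the dimmest class, was 0.22. The protease gene Htra3 was at -0.56 on 1427029_at and between -0.56 and 0.25 over its 3 probe sets. The related Htra1 lay the other way, at 0.76 and 0.59 (SE 0.41 and 0.343), with overlap, and stood highest in Ift88-deleted 1 at 1.235 and 1.005. The pappalysin genes Pappa and Pappa2 lay between -0.27 and 0.21 and at 0.08.

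The adaptors and kinases below Igf1r (30 genes, 78 probe sets, median -0.026) had 2 probe sets of 78 higher and 6 lower at an unadjusted p under 0.05, beside 3.0% and 3.18% of all probe sets. Groups were apart for 28 of 78, against 33.6% of all. Grb14, an adaptor that blocks insulin receptor kinase, read 0.39, 0.37, -0.37 and -0.68 in controls 1 and 2 and Ift88-deleted 1 and 2 on 1417673_at (-0.90, SE 0.163, adjusted p = 0.438 in limma). The other Grb14 probe set, of the dimmest class, also had groups apart (-0.56). Pik3cb, a catalytic subunit of PI3-kinase, read 0.97, 0.41, -0.41 and -0.44 (-1.11, SE 0.216, adjusted p = 0.494) and was at -0.83 without control 1. Pik3ca, the alternative catalytic subunit, lay above 0 on all 6 probe sets and apart on 4, with 0.61 on 1429434_at (SE 0.142, adjusted p = 0.584). Of those apart, 1440054_at was of the dimmest class. The kinase gene Akt2 was at -0.58 on 1424480_s_at (SE 0.183) but between -0.58 and 0.32 over its 3 probe sets. Irs1 and Irs2, the docking proteins of the receptor, were at -0.01 and -0.16.

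The genes below Ghr (10 genes, 25 probe sets, median -0.113) held differences in both directions. At an unadjusted p under 0.05 in limma 2 probe sets of 25 were higher and 3 lower, beside 3.0% and 3.18% of all. Groups were apart for 13 of 25, 8 higher and 5 lower, against 33.6% of all (16.2% higher and 17.4% lower). Socs2, the growth hormone-induced feedback inhibitor of Ghr, lay below 0 on all 6 of its probe sets and apart on 3. It read 0.21 and 0.43 in controls 1 and 2 against -0.21 and -0.38 in Ift88-deleted 1 and 2 on 1449109_at (-0.61, SE 0.159, adjusted p = 0.672 in limma). Cish, another STAT5 target, was at -0.18, with overlap. Stat5a was at 0.73 on 1421469_a_at (SE 0.15, adjusted p = 0.526) and -0.12 on its other probe set, of the dimmest class. Stat3 lay above 0 on all 4 probe sets (1424272_at of the dimmest class), with 0.77 on 1426587_a_at (SE 0.161, adjusted p = 0.531). Socs3 was at -0.76 on 1455899_x_at (SE 0.161) but between -0.76 and 0.18 over its 3 probe sets. The kinase gene Jak2 lay between -0.13 and -0.05.

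Genes that FOXO factors switch on when IGF signalling is low (9 genes, 19 probe sets, median 0.023) also lay on both sides. At an unadjusted p under 0.05 in limma 2 probe sets of 19 were higher and 2 lower, beside 3.0% and 3.18% of all. Groups were apart for 12 of 19, 5 higher and 7 lower, against 33.6% of all (16.2% higher and 17.4% lower). Sesn1, an mTOR inhibitor, had all 4 probe sets lower with groups apart, from -0.53 to -0.16. Cdkn1b, the cell cycle inhibitor p27, had both higher with groups apart, at 0.22 (1419497_at, of the dimmest class) and 0.52. The largest differences of Txnip (0.62) and Ccng2 (-0.75) were each met by a probe set of the opposite sign, and without control 1 they were 0.40 and -0.40. In the mannose 6-phosphate sorting list (7 genes, 12 probe sets, median -0.067), which holds the partners of Igf2r in lysosomal delivery, Gnptab, an enzyme that builds the mannose 6-phosphate tag, was at 0.66 on 1435335_a_at (SE 0.168) and between -0.14 and 0.66 over 3 probe sets. Gnptg, its partner subunit, was at -0.40, and M6pr, the smaller receptor of the tag, lay between -0.17 and 0.01. The IGF2 mRNA-binding proteins (2 genes, 10 probe sets, median 0.015) had 0 of 10 probe sets with an unadjusted p under 0.05, where 6.17% of all did.

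**Figure D5:**
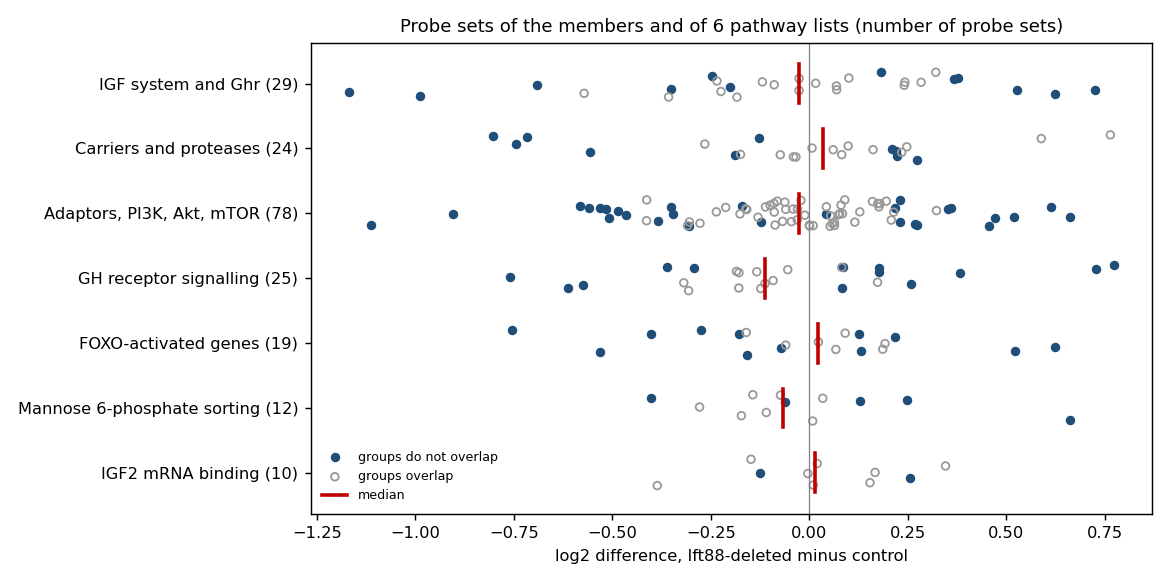
Each point is the log2 difference (Ift88-deleted minus control, horizontal axis) of a probe set of the 10 genes or of 6 pathway lists (rows, with the number of probe sets); filled points mark groups that do not overlap, points are spread vertically only to be seen, and red bars are medians. All medians lie between -0.113 and 0.034, and the lowest point of any row is that of Igf1r, at -1.17.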

How the data were processed

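Gene expression was measured on Affymetrix arrays in 2 control and 2 Ift88-deleted samples from 50 ng of total RNA amplified in 2 rounds, per the labels' protocols. The deposited table holds log2 expression values. These were made with RMA, per the submitters' processing notes, with no version given. In the deposited table the median of every probe set over the 4 arrays is 0 within 5e-07, so each was centred, and the log base was inferred from the values, which lie on the steps of single-precision numbers between 2 and 16.

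Of 45101 probe sets 64 control ones were left out. Of the rest 34945 name 1 gene, 932 several and 9160 none, and 34741 took the symbol of the RefSeq table of GRCm38.p6. Each probe set was fitted in limma 3.58.1 (R 4.3.3) on the group alone, with eBayes (2 residual and 3.46 prior degrees of freedom) and Benjamini-Hochberg adjustment over all 45037 probe sets, at a threshold of 0.05. With 2 arrays against 2 there are 3 splits, so an exact permutation test cannot give a p under 0.333, and none was used. Groups apart means that both arrays of a group lie above both of the other.

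The members and lists were chosen with earlier results of these data known. All members were named with every probe set. Of each pathway list up to 4 probe sets were named by size, with an unadjusted p under 0.05 and groups apart; other genes named beside them were picked after their values were seen. Promoters come from RefSeq (GRCm38.p6), and 10 of 10 genes matched. Some genes of the pathway lists are not reported here. The fit was tested on simulated data for this comparison, 10 draws of 45037 probe sets with 100 changed ones per size: the test found 0.3% of the 2-fold and 69% of the 4-fold ones and called 3.3 unchanged probe sets in a draw.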

Additional observations from a re-analysis of the deposited data

How the results depend on the processing

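The count of 0 called probe sets among the 29 held under renewed quantile normalization, subtraction of array medians, gene means, no or robust moderation, a threshold of 0.1, the dimmest class left out, genes on X and Y left out and each array left out; gene means give no value per probe set. None of the 29 changed sign in those settings that keep all 4 arrays. The replicate number as a block also called 0 of 29 members; same-numbered arrays had deviations that correlated at 0.102, and nothing says that the numbers pair samples. Over all probe sets 20 were called, against 2 genes as gene means, 2 without moderation, 5 with the replicate block, 5 without genes on X and Y, and 9 to 12 with 1 array left out (9 without control 1, 11 without control 2, 10 without Ift88-deleted 1 and 12 without Ift88-deleted 2). Leaving out 1 array kept the sign of 13 of the 29 and turned that of 16, whose differences then ran as follows: Igf1 1419519_at from -0.074 to 0.106, 1437401_at from -0.414 to 1.056; Igf1r 1428967_at from -0.741 to 0.027, 1452108_at from -0.222 to 0.044. For the binding proteins they ran as follows: Igfbp2 1454159_a_at from -0.059 to 0.007; Igfbp3 1423062_at from -0.959 to 0.592, 1458268_s_at from -0.507 to 0.038; Igfbp4 1421991_a_at from -0.003 to 0.142, 1421992_a_at from -0.026 to 0.508, 1423756_s_at from -0.992 to 0.754, 1423757_x_at from -0.306 to 0.444, 1437405_a_at from -0.591 to 0.539, 1437406_x_at from -0.387 to 0.588; Igfbp5 1422313_a_at from -0.023 to 0.591, 1452114_s_at from -2.199 to 1.055; Igfbp7 1423584_at from -0.473 to 0.024. With 4 arrays the precision is low, and the simulated data show that 2-fold changes are seldom called.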

Other observations

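Antisense and neighbouring transcripts of the IGF genes were also on the arrays. Igf1os, antisense to Igf1, read 0.22 and 0.03 in controls 1 and 2 against -0.08 and -0.03 in Ift88-deleted 1 and 2 (1428042_at), with groups apart and a difference of -0.18 (SE 0.147, adjusted p = 0.941 in limma), opposite in sign to the mean of Igf1. The probe set that names both Airn, the antisense RNA of the imprinted Igf2r locus, and Igf2r read -0.05, 0.02, 0.03 and -0.02 (1440979_at), a difference of 0.02 (SE 0.136), while both probe sets of Igf2r alone were at 0.37 and 0.53. Igf2os, antisense to Igf2, was at -0.08 (SE 0.166).

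Within the set the pair of controls was further apart than the pair of Ift88-deleted arrays for 18 of the 29 probe sets, and control 1 was the lowest array for 15 of them and the highest for 5. Over all 45037 probe sets the controls were the wider pair for 27929, and control 1 was the lowest for 15671 and the highest for 13730.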
